A study of Mus musculus with 6 samples.

Results

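Hypoxia-responsive genes outside glycolysis are transcripts that many cell types raise when oxygen falls, other than those of sugar breakdown. The 34 genes described here were given by name, by a rule that uses no measured value but was written with earlier results of these data known, and all 34 were found in a table of 54532 genes of cultured mouse cortical astrocytes. All 34 passed the filter on low counts and were among the 18530 genes tested, so no member was left out. Each is annotated as protein-coding in GENCODE on the mouse build GRCm38.

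Bulk RNA sequencing compared 3 knockout with 3 control cultures of primary astrocytes from mouse pups. The knockout pups carried GFAP-Cre, Cre recombinase driven by the promoter of the astrocyte filament gene Gfap, together with a homozygous floxed neogenin gene (NEOf/f), and are labelled Neo1 knockout. The controls were littermates labelled only as control, and their libraries are named after the floxed allele alone. Age of the pups, oxygen and treatment are not given in the labels, so no group was made hypoxic as far as the labels say. Cre from this promoter removes the floxed allele in cells that use it and in their descendants, and which cells of these cultures kept Neo1 was not measured. The titles number the replicates within each genotype and call them biological (biol rep), without tying any to a pup, litter or dish. The p-values therefore measure only how far these samples spread, and part of that spread may be technical.

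Total counts ran from 60819277 to 106081115 per library, and mitochondrial transcripts took 1.67% to 1.91% of them. Neo1, which encodes neogenin, a receptor of guidance cues such as RGM proteins and netrins, was at 189 to 198 CPM in the control and 101 to 106 CPM in the knockout libraries, a log2 fold change of −0.89 (SE 0.05), over the whole gene and not the deleted exons alone. CPM is a count scaled to library size, here with TMM factors that normalise between libraries. Knockout replicate 2 stood apart from knockout replicates 1 and 3 on the second principal component, which held 19.6% of the variance, and had the fewest genes with a count, 22076. Of 15 astrocyte markers, 2 were called higher in knockout cultures and 10 called lower. Their summed level was 3351 to 3424 CPM in control and 2937 to 3078 CPM in knockout libraries. This sum joins larger changes in opposite directions. The 2 higher were Slc1a2 (132.9 CPM on average in control and 371.2 CPM in knockout libraries) and Aqp4 (605.5 and 878.8 CPM). The 10 lower included Gfap (946.2 and 431 CPM).

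When oxygen is plentiful, prolyl hydroxylases of the EGLN family mark the HIF-α subunits, and the VHL protein directs them to degradation. When oxygen falls, the subunits persist, pair with ARNT and bind short DNA elements with the core ACGTG or GCGTG near their target genes. Targets outside glycolysis act on mitochondria and mitophagy, acid export, growth signalling, chromatin, lipid storage and secreted peptides that act on blood vessels. Astrocytes are known as a source of vessel-acting signals in the hypoxic brain. Several members also answer to other signals, such as the integrated stress response, glucocorticoids and the circadian clock.

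The 34 members did not move as a block. In the knockout cultures 9 rose, namely Rora, Ddit4, Ak4, Narf, Tmem45a, Stc2, Ero1l, Bnip3l and Stc1, and 5 fell, namely Edn1, Car9, Adm, Bhlhe40 and Ppp1r3c, at an adjusted p under 0.05 (edgeR's quasi-likelihood test, Benjamini-Hochberg adjustment over all genes tested). That is 26.5% higher and 14.7% lower. Over all genes tested, 19.6% were called higher and 18.7% lower, 38.3% in all, so the shares of the members lay near the background. Scaled by total counts alone, 9 members were higher and 8 lower, and over all genes 2921 higher and 4499 lower in place of 3627 and 3466. The median log2 fold change was 0.13 over the members and −0.002 over all genes tested, and the median size regardless of sign was 0.20 and 0.27. Fold changes of called members ran from 0.495 for Edn1 to 2.14 for Rora, and 8 of the 14 differed by more than 1.5-fold (6 higher and 2 lower). That is 23.5% of the members, against 12.9% of all genes tested.

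**Figure D1:**
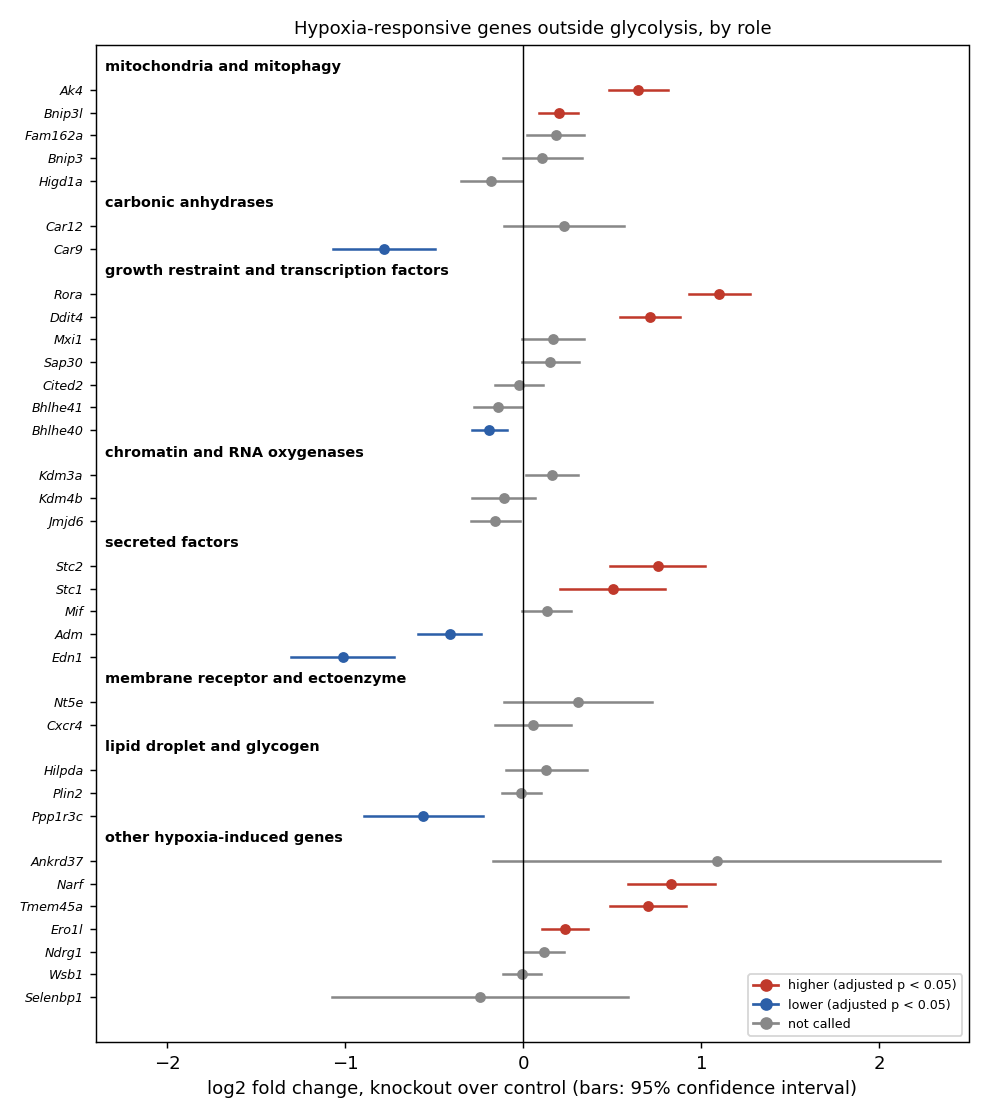
Log2 fold change of knockout over control (horizontal axis) for each of the 34 members, grouped by role. Points are fitted values, bars are 95% confidence intervals, red marks the 9 members called higher, blue the 5 called lower and grey the 20 not called; most grey points lie close to 0, while Ankrd37 and Selenbp1 have the widest intervals.

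Of the 34 members, 13 had knockout libraries wholly above the control libraries and 7 wholly below. Over all genes tested, 49.3% did not overlap, 24.7% with knockout higher and 24.5% with knockout lower. The members without overlap include all 14 called members, which largely follows from calling them on the same libraries. They also include 6 members not called. Fam162a, Car12, Nt5e and Ankrd37 lay higher in every knockout library, and Bhlhe41 and Jmjd6 lower. No member had an adjusted p between 0.0093, the value of Ppp1r3c just inside the threshold, and 0.0651, the value of Jmjd6 just outside it. The 95% confidence intervals given for members not called are not adjusted for the number of genes.

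Promoters are shown for the called members with the smallest p in each direction, because many members are known as HIF targets and the core element is a few bases long. RefSeq promoters on GRCm38.p6, each 250 bases before to 50 after an annotated start, were at hand for 29 members, 28 matched by symbol and Ero1l by gene ID. Those of Bnip3l, Bhlhe40, Kdm4b, Stc1 and Ndrg1 were not used here. Capitals mark ACGTG or GCGTG read on either strand, so that CACGT and CACGC are the same elements on the opposite strand, and CACGTG, which is also the E-box of other basic helix-loop-helix factors, holds ACGTG on both. Each stretch of 100 bases lies upstream of the RefSeq start and was picked there for holding the most matches, so it is not typical upstream sequence. Ak4 has 4 RefSeq starts, and a CACGTG in the promoter of another start is not shown. For Edn1 and Car9 the 30 bases around the single match are given, where the match lies after the RefSeq start in Edn1 and before it in Car9. The stretches are Rora (chr9:68653599-68653698, plus strand), Ddit4 (chr10:59951858-59951957, minus strand), Ak4 (chr4:101419177-101419276, plus strand), Narf (chr11:121237107-121237206, plus strand), Edn1 (chr13:42301485-42301514, plus strand), Car9 (chr4:43506996-43507025, plus strand), Adm (chr7:110627557-110627656, plus strand) and Ppp1r3c (chr19:36736694-36736793, minus strand), each written 5′ to 3′ on the strand of its gene.
Rora: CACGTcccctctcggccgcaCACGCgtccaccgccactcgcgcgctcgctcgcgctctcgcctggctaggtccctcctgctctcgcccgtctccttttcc
Ddit4: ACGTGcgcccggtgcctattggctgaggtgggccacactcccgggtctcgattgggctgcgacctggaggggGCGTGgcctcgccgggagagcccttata
Ak4: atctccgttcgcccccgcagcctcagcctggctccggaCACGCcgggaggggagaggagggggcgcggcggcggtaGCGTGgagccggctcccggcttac
Narf: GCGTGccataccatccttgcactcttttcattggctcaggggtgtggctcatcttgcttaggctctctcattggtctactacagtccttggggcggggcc
Edn1: tatctctggctgCACGTtgcctgtgggtga
Car9: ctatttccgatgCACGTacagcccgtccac
Adm: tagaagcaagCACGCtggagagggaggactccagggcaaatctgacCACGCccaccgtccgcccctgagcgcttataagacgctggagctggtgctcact
Ppp1r3c: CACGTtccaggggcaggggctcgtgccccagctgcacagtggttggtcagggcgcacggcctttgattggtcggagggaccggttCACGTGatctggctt

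A match to either element was common among the members whichever way they moved. At least 1 match lay in the promoters of 28 of the 29 members (96.6%), against 64% of 12537 tested genes with a promoter in the table, counting a gene if any of its starts had a match. By element, 21 members held ACGTG (72.4%, against 27.6%) and 23 held GCGTG (79.3%, against 52.7%). The median GC content of these promoters was 62% for members and 60.3% for tested genes. A match was present in 7 of 7 members called higher, 4 of 4 called lower and 17 of 18 not called, Car12 being the member without one. Taken singly, ACGTG lay in 4 of the 7 called higher and 3 of the 4 called lower. GCGTG lay in 7 of the 7 called higher and 2 of the 4 called lower. These are matches of letters in a window, and binding was not measured.

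Among 5 members that act in mitochondria, 2 rose, 0 fell and 3 were not called. Ak4 (ENSMUSG00000028527, chromosome 4, 101419277 to 101466995, plus strand) encodes adenylate kinase 4 of the mitochondrial matrix and was at 21.03, 21.4 and 23.0 CPM in control and 32.1, 38.3 and 32.1 CPM in knockout replicates 1 to 3. Every knockout library lay above every control library, with replicate 2 the highest, and the log2 fold change was 0.64 (adjusted p = 3.95e-06, SE 0.08). A pseudogene, Ak3l2-ps, is 99.6% identical over 15.4% of the longest Ak4 transcript and had 35 to 137 counts beside 1308 to 3067 for Ak4.

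Bnip3l (ENSMUSG00000022051, chromosome 14, 66985239 to 67008877, minus strand), which encodes the mitophagy receptor NIX, was at 65.9, 68.9 and 68.6 CPM in control and 80.3, 77.9 and 75.2 CPM in knockout replicates 1 to 3. The rise was small but the groups did not overlap, with a log2 fold change of 0.20 (adjusted p = 0.00529, SE 0.05). Bnip3l-ps is 99.2% identical over 20.3% of the transcript and had 287 to 585 counts, which leaves the value of Bnip3l uncertain to that extent. Its paralogue Bnip3, the other hypoxia-induced mitophagy receptor, ran from 9.02 to 10.7 CPM in control and 10.1 to 11.1 CPM in knockout libraries, which overlapped, and its log2 fold change was 0.11 (95% confidence interval −0.12 to 0.33, adjusted p = 0.476). The interval of Bnip3 contains that of Bnip3l, and their difference was not tested. Bnip3 is uncertain as well, since 48.9% of its transcript aligns to AC160336.1 at 98.3% identity. AC160336.1 had 1 to 8 counts beside 663 to 997 for Bnip3, and how reads that match both were treated is not given.

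Fam162a, which encodes a mitochondrial protein tied to cell death in hypoxia, had a log2 fold change of 0.18 (95% confidence interval 0.02 to 0.34, adjusted p = 0.07). Higd1a, which encodes a small protein of the respiratory chain, had one of −0.18 (95% confidence interval −0.35 to −0.01, adjusted p = 0.0909). Without knockout replicate 2, the adjusted p of Higd1a was 0.00362 and its log2 fold change −0.28. Both genes overlap a gene on the opposite strand, and reads of each pair may not be separable. Wdr5b matches 23.4% of the longest Fam162a transcript at 100% identity and had 228 to 480 counts beside 1781 to 3068. Gm47112 matches 30.6% of the longest Higd1a transcript at 100% identity and had 1 to 22 counts beside 2279 to 4391.

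The 2 membrane-bound carbonic anhydrases hydrate carbon dioxide outside the cell and take part in pH control; Car9 fell and Car12 was not called. Car9 (ENSMUSG00000028463, chromosome 4, 43506966 to 43513729, plus strand), a gene often used as a marker of HIF activity, was at 6.27, 6.69 and 6.64 CPM in control and 3.69, 3.92 and 3.79 CPM in knockout replicates 1 to 3. The groups were far apart with little spread in either, and mean levels went from 6.53 ± 0.227 to 3.80 ± 0.119 CPM (SD, n = 3). The fall had a log2 fold change of −0.78 (adjusted p = 1.58e-04, SE 0.13). An antisense gene, Gm12454, overlaps its exons and had 0 to 13 counts, and whether counting used strand is not given, so reads of the pair may not be separable. The same holds for the called members Rora, Edn1, Stc1 and Bhlhe40, whose exons also overlap a gene on the opposite strand. Among members not called it holds for Bnip3, Higd1a, Fam162a, Mxi1, Bhlhe41, Jmjd6, Ndrg1 and Ankrd37. Car12 ran from 3.16 to 4.03 CPM in control and 4.13 to 4.29 CPM in knockout libraries, with a log2 fold change of 0.23 (95% confidence interval −0.11 to 0.56, adjusted p = 0.288). The 95% intervals of the pair do not overlap, but their difference was not tested.

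Of 7 members that restrain growth or control transcription, 2 rose, 1 fell and 4 were not called. Rora (ENSMUSG00000032238, chromosome 9, 68653786 to 69388246, plus strand) encodes a nuclear receptor that activates clock genes and was at 13.9, 14.4 and 16.9 CPM in control and 32.4, 31.6 and 33.2 CPM in knockout replicates 1 to 3. Every knockout library was near 32 CPM and every control library was below 17 CPM. Mean levels went from 15.1 ± 1.59 to 32.4 ± 0.780 CPM (SD, n = 3), 2.14-fold and the largest fold among the called members, with a log2 fold change of 1.10 (adjusted p = 6.64e-09, SE 0.08). Rora was also the only called member besides Edn1 to pass a test against a minimum fold of 1.5, with an adjusted p of 2.47e-05. Ddit4 (ENSMUSG00000020108, chromosome 10, 59949669 to 59951834, minus strand) encodes REDD1, which inhibits mTORC1 and is induced by hypoxia, glucocorticoids and the integrated stress response. It was at 43.0, 45.5 and 41.4 CPM in control and 78.3, 60.7 and 73.2 CPM in knockout replicates 1 to 3, with knockout replicate 2 the lowest of the knockout libraries but still above all controls. Mean levels went from 43.3 ± 2.05 to 70.7 ± 9.06 CPM (SD, n = 3), and on the log2 scale the difference was 0.71 (adjusted p = 2.50e-06, SE 0.08).

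Bhlhe40 (ENSMUSG00000030103, chromosome 6, 108660629 to 108666925, plus strand) encodes DEC1, a repressor of clock and other genes, and was at 116, 113 and 117 CPM in control and 98.9, 103 and 101 CPM in knockout replicates 1 to 3. The fall was small against narrow spreads, without overlap, and had a log2 fold change of −0.19 (adjusted p = 0.00296, SE 0.05). Its paralogue Bhlhe41 (DEC2) ran from 29.5 to 30.6 CPM in control and 26.4 to 27.8 CPM in knockout libraries, which did not overlap. Its log2 fold change of −0.14 (95% confidence interval −0.28 to −0.01, adjusted p = 0.0901) was close to that of Bhlhe40 but did not pass the threshold. Cited2, which encodes an inhibitor of HIF binding to its coactivator CBP/p300, was among the most abundant members and had a log2 fold change of −0.02 (95% confidence interval −0.16 to 0.11, adjusted p = 0.799). Knockout replicate 2, at 209 CPM, lay below the other knockout libraries, at 253 and 253 CPM. Mxi1, a MYC antagonist, and Sap30, a subunit of a histone deacetylase complex, had log2 fold changes of 0.17 and 0.15 (adjusted p = 0.131 and 0.127).

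None of the 3 oxygen-dependent dioxygenase genes was called. Kdm3a, a histone H3 demethylase and a well-known HIF target, had a log2 fold change of 0.16 (95% confidence interval 0.02 to 0.30, adjusted p = 0.0729). Kdm4b, another histone demethylase, had one of −0.11 (95% confidence interval −0.29 to 0.07, adjusted p = 0.337). Jmjd6, which encodes a lysyl hydroxylase of RNA-binding proteins, was at 29.0, 29.9 and 31.5 CPM in control and 27.2, 26.9 and 27.0 CPM in knockout replicates 1 to 3. All knockout libraries were lower, but by little, with a log2 fold change of −0.16 (95% confidence interval −0.30 to −0.02, adjusted p = 0.0651). Its exons overlap those of Gm27401 on the same strand and of Mettl23 on the opposite strand.

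Of 5 secreted factors, 4 changed, and in opposite directions: the stanniocalcins rose and the vasoactive peptides fell. Stc2 (ENSMUSG00000020303, chromosome 11, 31357307 to 31370074, minus strand) and Stc1 (ENSMUSG00000014813, chromosome 14, 69029238 to 69041804, plus strand) encode stanniocalcins, glycoproteins that act on calcium and phosphate handling. Stc2 was at 6.34, 6.57 and 5.25 CPM in control and 10.3, 9.09 and 11.2 CPM in knockout replicates 1 to 3, a log2 fold change of 0.75 (adjusted p = 1.23e-04, SE 0.13). Stc1 was at 4.52, 6.16 and 4.84 CPM in control and 7.52, 7.68 and 6.74 CPM in knockout replicates 1 to 3, a log2 fold change of 0.50 (adjusted p = 0.00887, SE 0.14). Neither gene showed overlap between groups, though Stc1 in control replicate 2 came close to the lowest knockout library. Without control replicate 1, Stc1 had an adjusted p of 0.0592 and was no longer called.

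Edn1 (ENSMUSG00000021367, chromosome 13, 42301476 to 42307990, plus strand) encodes endothelin-1, a vasoconstrictor peptide that also acts on astrocytes, and was at 15.2, 18.6 and 16.6 CPM in control and 9.32, 9.34 and 6.27 CPM in knockout replicates 1 to 3. Knockout replicate 3 was the lowest library and no library of one group reached the other. Mean levels went from 16.8 ± 1.71 to 8.31 ± 1.77 CPM (SD, n = 3), with a log2 fold change of −1.02 (adjusted p = 1.77e-05, SE 0.14). It passed the test against a minimum fold of 1.5 as well, with an adjusted p of 0.014. Adm (ENSMUSG00000030790, chromosome 7, 110627661 to 110629820, plus strand) encodes adrenomedullin, a vasodilator peptide and a standard hypoxia marker, and was at 47.9, 47.6 and 48.9 CPM in control and 39.4, 30.2 and 38.8 CPM in knockout replicates 1 to 3. Control libraries lay close together, every knockout library was lower, replicate 2 the lowest, and mean levels went from 48.1 ± 0.690 to 36.1 ± 5.15 CPM (SD, n = 3), which on the log2 scale is −0.41 (adjusted p = 7.86e-04, SE 0.08). Mif, a cytokine gene that had the highest level per length of all members (154 CPM per kilobase of exon in control and 168 in knockout cultures), had a log2 fold change of 0.13 (95% confidence interval −0.01 to 0.27, adjusted p = 0.13). Without knockout replicate 2, Mif had an adjusted p of 0.00368. It is uncertain because C230062I16Rik matches 45% of its transcript at 99.6% identity, though C230062I16Rik had 12 to 53 counts beside 7542 to 12888 for Mif.

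**Figure D2:**
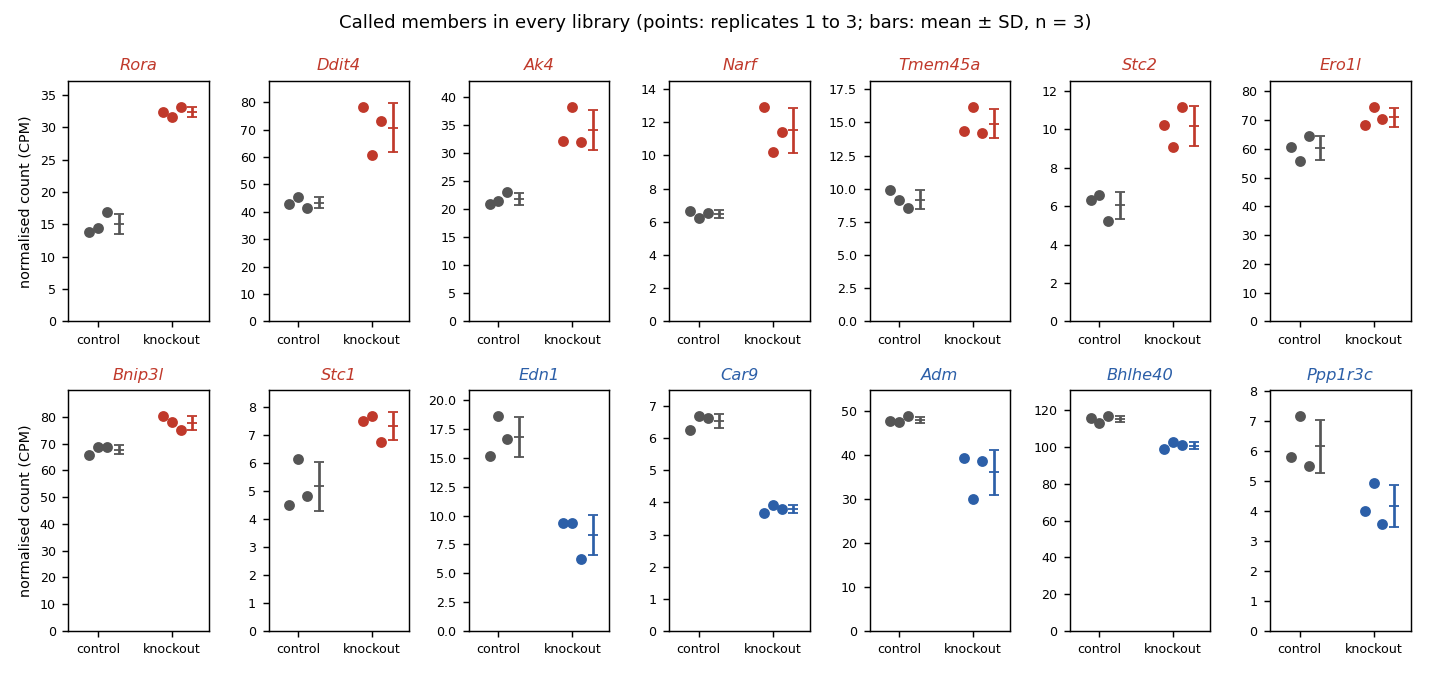
Normalised counts (CPM, vertical axes from 0) of the 14 called members in each library, control in grey and knockout in red (higher) or blue (lower). Points are replicates 1 to 3 from left to right and bars are mean ± SD (n = 3); in every panel the 3 knockout points lie wholly above or wholly below the 3 control points.

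The 2 members at the cell surface, Cxcr4 and Nt5e, were not called. Cxcr4, the receptor of the chemokine CXCL12, was at 9.83 to 10.9 CPM in control and 10.4 to 10.99 CPM in knockout libraries, a log2 fold change of 0.05 (95% confidence interval −0.16 to 0.27, adjusted p = 0.726). Nt5e, which encodes CD73, the ectoenzyme that makes adenosine from AMP, was low and had a log2 fold change of 0.31 (95% confidence interval −0.11 to 0.72, adjusted p = 0.244), an interval that reaches past a 1.5-fold difference.

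Of 3 members of lipid and glycogen storage, 1 fell. Ppp1r3c (ENSMUSG00000067279, chromosome 19, 36731731 to 36736653, minus strand) encodes a subunit that brings protein phosphatase 1 to glycogen and promotes its synthesis. It was at 5.80, 7.15 and 5.49 CPM in control and 3.99, 4.92 and 3.57 CPM in knockout replicates 1 to 3. The lowest control library, replicate 3, lay just above the highest knockout library, replicate 2, and the log2 fold change was −0.56 (adjusted p = 0.0093, SE 0.16). Without control replicate 2 the adjusted p was 0.0678. The lipid droplet genes were not called: Plin2, a coat protein of lipid droplets, had a log2 fold change of −0.01 (95% confidence interval −0.12 to 0.10, adjusted p = 0.89), and Hilpda, an inhibitor of triglyceride lipase, one of 0.13 (95% confidence interval −0.10 to 0.36, adjusted p = 0.385).

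The remaining 7 members have other roles, and 3 of them rose. Narf (ENSMUSG00000000056, chromosome 11, 121237253 to 121255856, plus strand), which encodes a prelamin-binding protein of the nucleus, was at 6.62, 6.22 and 6.56 CPM in control and 12.9, 10.2 and 11.4 CPM in knockout replicates 1 to 3. The knockout libraries were spread more widely than the controls, replicate 2 again nearest to them, and the log2 fold change was 0.83 (adjusted p = 1.84e-05, SE 0.12). Tmem45a (ENSMUSG00000022754, chromosome 16, 56805161 to 56886166, minus strand), which encodes a transmembrane protein, was at 9.90, 9.12 and 8.53 CPM in control and 14.4, 16.2 and 14.2 CPM in knockout replicates 1 to 3. Its log2 fold change was 0.70 (adjusted p = 2.65e-05, SE 0.10), and all knockout libraries were above 14 CPM while all controls were below 10 CPM. Ero1l (ENSMUSG00000021831, chromosome 14, 45283087 to 45318771, minus strand) encodes an oxidase that forms disulphide bonds in the endoplasmic reticulum and was at 60.6, 55.9 and 64.5 CPM in control and 68.2, 74.6 and 70.3 CPM in knockout replicates 1 to 3. It rose less, with a log2 fold change of 0.24 (adjusted p = 0.00499, SE 0.06), and without control replicate 2 its adjusted p was 0.0553.

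The other 4 were not called. Ndrg1, a stress-induced gene widely used as a hypoxia marker, had a log2 fold change of 0.11 (95% confidence interval 0.00 to 0.23, adjusted p = 0.106), and Wsb1, a subunit of an E3 ubiquitin ligase, one of −0.01 (95% confidence interval −0.11 to 0.10, adjusted p = 0.941). Ankrd37, an ankyrin-repeat gene, had only 14, 13 and 15 counts in the control and 38, 33 and 23 in the knockout libraries. Its log2 fold change was 1.08 (95% confidence interval −0.17 to 2.34, adjusted p = 0.17), so a difference of the size seen in Rora could not be told from no difference at this depth. The exons of Ankrd37 also overlap those of Lrp2bp and Ufsp2 on the opposite strand, and Lrp2bp had 16 to 64 counts. Since strand use is not given, some of these few reads may not be from Ankrd37. Selenbp1, a methanethiol oxidase gene, had 62, 78 and 112 counts in control and 89, 27 and 100 in knockout libraries, and a log2 fold change of −0.24 (95% confidence interval −1.08 to 0.59, adjusted p = 0.677). Selenbp1 is uncertain, since Selenbp2 is 98.5% identical over the whole of its transcript and had 2 to 15 counts.

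For 17 of the 20 members not called, the 95% confidence interval lay within a 1.5-fold difference in either direction; the exceptions were Nt5e, Ankrd37 and Selenbp1. Levels per length spanned a wide range, from 0.12 CPM per kilobase for Ankrd37 to 154 for Mif in control cultures. Only Ankrd37 and Selenbp1 had under 100 counts in any library.

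Knockout replicate 2 was farthest from the median of the 3 knockout libraries for 19 of the 34 members, knockout replicate 1 for 5 and knockout replicate 3 for 10. The counts for the control libraries were similar: control replicate 2 was farthest for 16 members, control replicate 1 for 6 and control replicate 3 for 12. The median distance of a member from its group mean on the log2 scale was 0.10 in knockout replicate 2 and between 0.05 and 0.06 in the other 5 libraries. Without knockout replicate 2, 11 members were higher and 6 lower. All 14 calls were kept, with Sap30, Mif and Higd1a added.

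**Figure D3:**
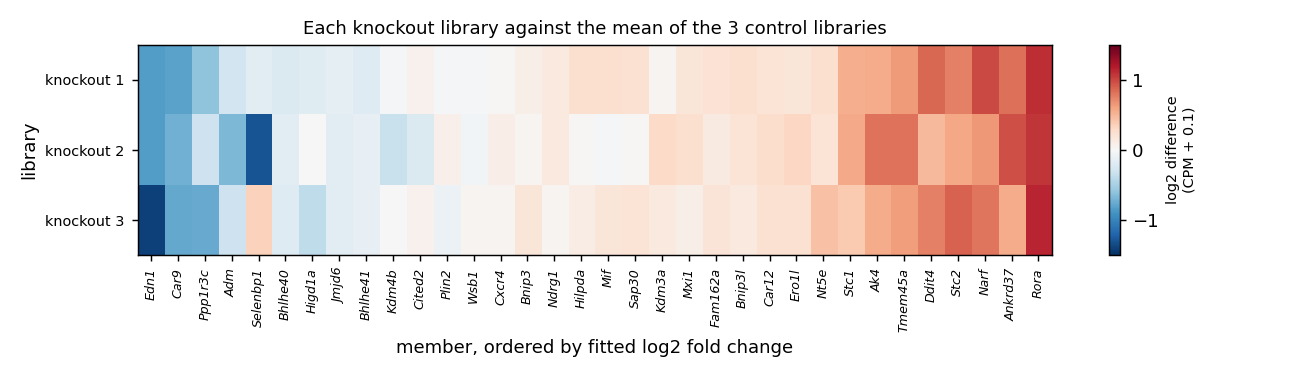
Log2 difference of each knockout library (rows) from the mean of the 3 control libraries, on CPM + 0.1, for the 34 members (columns) ordered by fitted log2 fold change. Edn1 is low and Rora high in all 3 libraries, and Selenbp1 is −1.30 in knockout replicate 2 but 0.35 in replicate 3.

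The rest of the HIF pathway was also mixed. Of 10 HIF subunits and oxygen sensors, 3 were higher (Epas1, Hif1a and Arnt, log2 fold changes 0.35, 0.26 and 0.16) and 4 lower, among them the prolyl hydroxylase gene Egln1 (−0.63), Arnt2 (−0.36) and Vhl (−0.27). The median of this list was −0.08, and it was positive without control replicate 3 (0.079), without knockout replicates 1 (0.0013) or 2 (0.043), and with a filter of 1 CPM in 3 libraries (0.040). Of 18 glycolysis genes known as HIF targets, 4 were higher and 9 lower (median −0.11). Pfkfb3 (0.52), Pfkl (0.32) and Hk1 (0.19) rose, and the phosphofructokinase gene Pfkp (−0.77), Aldoc (−0.86) and the glucose transporter gene Slc2a3 (−1.03) fell. Of 19 other HIF targets tested, 10 were higher and 2 lower (median 0.24), or 5 lower scaled by total counts alone. Nos2, the inducible nitric oxide synthase (2.36), and Lox, a collagen cross-linking enzyme (0.89), rose, while Pdgfb (−0.56) and Angpt2 (−0.87) fell. These shares, 70%, 72.2% and 63.2% called, stand beside 41.2% for the 34 members and 38.3% for all genes tested. Such shares were not particular to the HIF lists. They were 66.7% for integrated stress response targets, 80% for astrocyte markers and 75% for genes of cell division. Glucocorticoid-induced genes stood at 40% and neuron markers at 30%. The lists were not matched for abundance, and no test compared them.

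**Figure D4:**
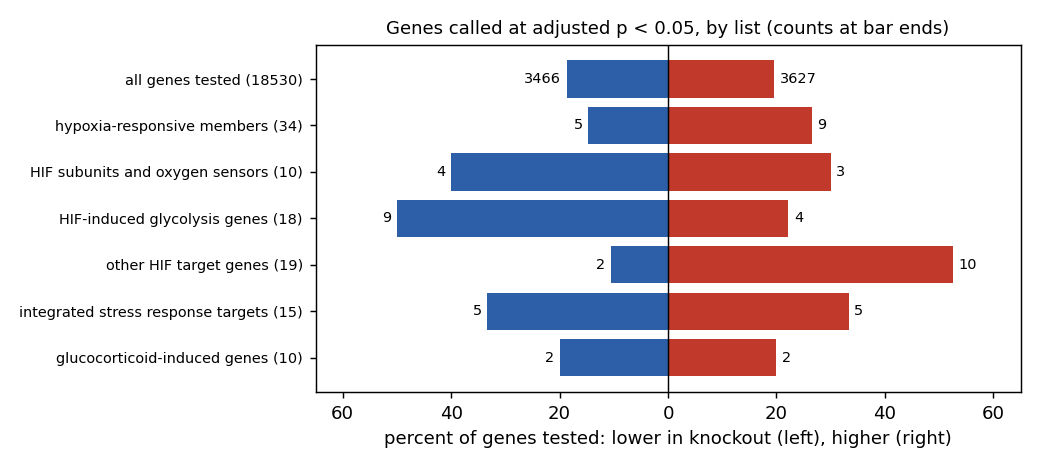
Percent of tested genes called lower (left, blue) and higher (right, red) in knockout cultures at an adjusted p under 0.05, for all genes, the 34 members and 5 other lists, with counts at the bar ends and the number tested in brackets. The members' bars, 5 lower and 9 higher, are close in length to those of all genes, while glycolysis genes lean lower (9 against 4) and other HIF targets higher (10 against 2).

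Regulons that share members with the hypoxic response were mixed too. Of 15 integrated stress response targets, 5 were higher and 5 lower. Those higher with the smallest p were the cystine transporter gene Slc7a11 (1.29), Nupr1 (0.50) and Vldlr (0.57), which is also counted among the other HIF targets. Those lower with the smallest p were Ppp1r15a (−0.47), Phgdh (−0.21) and Atf3 (−0.33). Without control replicate 1, control replicate 2 or knockout replicate 1, 3 were lower. The median of the stress response list was −0.05, and 0.017 without knockout replicate 2. Of 10 glucocorticoid-induced genes, Klf9 (0.32) and Sgk1 (0.14) rose and Dusp1 (−0.75) and Tsc22d3 (−0.55) fell. Without control replicates 1 or 2, or knockout replicates 1 or 2, 1 of these rose in place of 2.

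Markers of other cells moved between the same groups, and in bulk RNA fewer cells of a type and less RNA per cell cannot be told apart. Microglia and macrophage markers were 1 higher and 13 lower of 16, with a summed level of 149 to 155 CPM in control and 95.9 to 103 CPM in knockout libraries. For 13 fibroblast and meningeal markers the counts were 6 higher and 5 lower, with sums of 4342 to 4612 and 5739 to 6386 CPM. Endothelial markers were 4 higher and 1 lower of 9, with sums of 110.2 to 116 and 163 to 167 CPM; the 4 higher were Cdh5 (26.8 and 53.4 CPM on average), Flt1 (43.5 and 68.1), Esam (13.4 and 19.95) and Kdr (11.8 and 14.8), and the 1 lower was Slco1a4 (13.2 and 3.70). Of the remaining endothelial markers, Pecam1, Tek, Ly6c1, Emcn and Cldn5 averaged under 2 CPM in both groups, Cldn5 the lowest (0.088 and 0.046 CPM). Pericyte and smooth muscle markers were 3 higher and 3 lower of 9 (sums of 4087 to 4266 and 3085 to 3115 CPM), neuron markers 1 and 2 of 10, or 0 to 2 higher with 1 library left out (410.3 to 424 and 352 to 367 CPM), oligodendrocyte lineage markers 2 and 4 of 9 (335 to 344 and 293 to 338 CPM) and genes of cell division 0 and 12 of 16 (1068 to 1094 and 914 to 962 CPM). Abundant genes weigh most in some of these sums. Acta2, of the pericyte and smooth muscle list, averaged 3850 CPM in control and 2685 CPM in knockout libraries. The 3 higher in that list were Pdgfrb, Cspg4 and Notch3. Col1a1, of the fibroblast list, averaged 1950 and 2976 CPM, and Stmn2, of the neuron list, 284 and 225 CPM. No marker was at 0 in all 6 libraries. The part of these cells in the values of the 14 called members was not tested.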

How the data were processed

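Poly-A RNA of 6 astrocyte cultures had been sequenced, 3 per genotype, per the labels' protocols. The deposited table gives raw counts by gene; HISAT2 2.2.1 and featureCounts 2.0.6 on GRCm38 (mm10) are named in the submitters' processing notes. Not given in the sources used here are how multi-mapping reads were treated, whether counting used strand, and the annotation release.

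Columns were matched to libraries by name and groups taken from titles. Genes passing edgeR's filterByExpr (minimum count 10, minimum total 15; 18530 genes, 99.96% of counts) went into edgeR 4.0.16 (R 4.3.3) with TMM, robust glmQLFit, glmQLFTest on genotype alone, two-sided, Benjamini-Hochberg over all genes tested, threshold 0.05. SEs come from the test statistic. A chi-square per gene of 5.98 to 21.7 between libraries of a genotype exceeded the sampling noise of repeated sequencing. Each library was counted as a sample, though separate libraries of the same culture could exceed that noise too. Exon lengths, overlaps and near-identical transcripts (BLAST, at least 95% identity over 100 bases) came from GENCODE M21. The code was tested on simulated data with far fewer changed genes than were called here, as many raised as lowered. That test does not bear on the choice of normalisation.

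Members and the 13 other lists were chosen with earlier results of these data known. The other lists share some genes, namely Vldlr, Flt1, Aldoc, Cspg4 and Pdgfra, which are counted in each list that holds them. All members are accounted for; called members are given in every library, and from the pathway lists up to 3 called genes per direction with the smallest p. A gene that this rule names is not reported here. Alternatives were other normalisations, DESeq2 1.42.0, limma-voom (limma 3.58.1), other filters and thresholds, a replicate block and each library left out.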

Additional observations from a re-analysis of the deposited data

How the results depend on the processing

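The 14 called members kept their direction under all 17 alternatives. Of these, 11 also stayed past the threshold under each alternative other than the test against a minimum fold of 1.5; Stc1, Ppp1r3c and Ero1l were each lost without 1 control library. Against that minimum fold, 1 member was higher (Rora) and 1 lower (Edn1), beside 666 and 348 of all genes. Scaled by total counts alone, 8 members were lower and the median over the members was 0.066; it was 0.11 by upper-quartile normalisation and 0.14 by limma-voom. Leaving out 1 library at a time gave 8 to 11 members higher, 4 to 6 lower and a median of 0.10 to 0.13, and over all genes 2907 to 3517 higher and 2753 to 3431 lower. Signs turned in 5 members, none of them called: Cxcr4 (−0.012, total counts alone), Wsb1 (0.0003 with at least 1 CPM in 3 libraries; −0.042 to 0.012 with 1 library left out, 0.0081 without control replicate 1), and, with 1 library left out, Plin2 (−0.057 to 0.025, 0.0013 without control replicate 1), Cited2 (−0.072 to 0.062) and Selenbp1 (−0.68 to 0.12). Of the 20 members not called, 7 were called under at least 1 alternative: Higd1a, Fam162a, Bhlhe41, Sap30, Kdm3a, Jmjd6 and Mif. DESeq2, median-of-ratios normalisation and a threshold of 0.01 changed no member's call. With a replicate block, 9 members were higher and 5 lower (median 0.13), and 3501 and 3383 of all genes; same-numbered libraries deviated together little (correlations −0.008 to 0.019) and not every library correlated best with its own number, so the numbers were not taken to pair samples. The cause of these shifts was not tested. Ankrd37 had the fewest counts of the members, 13 to 38 per library.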
